A study of Rattus norvegicus with 20 samples.

Results

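The immediate early genes Fos, Fosb, Junb, Egr1, Egr3, Egr4, Arc, Npas4, Nr4a1 and Dusp1, which neurons switch on within minutes of firing, were followed in every library of the series. They were chosen by symbol, as the 10 genes of the list among 30443 genes in the table of FPKM values, a unit that scales the fragments sequenced by transcript length and by library size. Each symbol had 1 entry, and all 10 reached 1 FPKM in at least 1 library and so were among the 15210 genes tested. RNA came from 4 adult female wild-type (WT) Long-Evans rats, aged about 6 to 8 months and weighing 275 to 350 g, an outbred laboratory strain. All 4 animals had received a hemicontusion of the cervical cord at level 4 with a displacement of 0.7 mm, and later an electrode array in the motor cortex opposite the injury. The 2 stimulated animals then received 1 week of current through the electrode at 10 Hz, in cycles of 5 min on and 2 min off for 5 h a day, at 80% of the current that evoked forelimb movement. The 2 control animals were connected in the same way without current. Tissue was taken from 5 regions of each animal. Region 1 was a block of about 5 mm3 of subcortical white matter below the electrodes, region 2 the matching block of the other hemisphere, and regions 3, 4 and 5 were cord rostral to, at and caudal to the lesion. Every value below is therefore from injured and implanted animals, and the series analysed here holds no uninjured or unimplanted group.

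The 10 genes are targets of the signalling that follows calcium entry into an active neuron, and their transcription needs no new protein. Their transcripts appear quickly and are lost quickly, so a level in frozen tissue reflects the time shortly before the tissue was taken. Most of them encode transcription factors that act on later genes, Arc acts at synapses, and Dusp1 shuts off the kinases that start the response. Several of them also respond to growth factors, injury and stress in glia and other cells.

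RefSeq promoters (assembly GRCr8, 250 bases before to 50 bases after the start of the gene) were matched by symbol for 7 of the 10 genes. No entry was matched for Fos, Egr3 and Arc. The 250 bases before the start are printed for 4 members, since members moved together across the white matter libraries. Egr1 and Dusp1 held the elements through which calcium signals are known to act, and Nr4a1 held the most copies of the shorter core. Npas4 held none of these, and neither did Fosb, which is not printed. Capitals mark matches on either strand to the CArG box, which serum response factor binds, to the cyclic AMP response element (CRE, TGACGTCA), and to its core TGACG, which overlaps the CRE.
Egr1, chr18:26736828-26737077, plus strand: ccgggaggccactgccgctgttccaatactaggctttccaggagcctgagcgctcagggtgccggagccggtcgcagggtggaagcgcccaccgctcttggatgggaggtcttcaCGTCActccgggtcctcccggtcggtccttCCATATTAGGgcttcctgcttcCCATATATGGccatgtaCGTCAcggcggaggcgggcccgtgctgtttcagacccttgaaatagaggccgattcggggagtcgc
Dusp1, chr10:17184603-17184852, plus strand: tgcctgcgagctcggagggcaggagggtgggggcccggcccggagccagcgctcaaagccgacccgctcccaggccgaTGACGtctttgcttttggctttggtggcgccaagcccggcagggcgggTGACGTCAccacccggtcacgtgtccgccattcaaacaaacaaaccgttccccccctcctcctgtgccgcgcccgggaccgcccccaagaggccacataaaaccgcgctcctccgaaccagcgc
Nr4a1, chr7:134259888-134260137, plus strand: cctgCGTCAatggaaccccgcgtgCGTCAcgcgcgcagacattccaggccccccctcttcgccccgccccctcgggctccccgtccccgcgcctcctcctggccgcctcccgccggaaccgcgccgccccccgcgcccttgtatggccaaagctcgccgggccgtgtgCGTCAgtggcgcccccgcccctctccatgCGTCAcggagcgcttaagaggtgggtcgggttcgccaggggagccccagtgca
Npas4, chr1:211716103-211716352, minus strand: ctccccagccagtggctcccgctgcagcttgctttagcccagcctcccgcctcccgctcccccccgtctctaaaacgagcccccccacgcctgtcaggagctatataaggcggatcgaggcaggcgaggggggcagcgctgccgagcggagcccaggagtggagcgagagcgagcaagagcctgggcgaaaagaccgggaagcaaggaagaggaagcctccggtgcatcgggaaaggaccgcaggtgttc

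The Egr1 window held 2 CArG boxes, CCATATTAGG and CCATATATGG, which ended 96 and 74 bases before the start. A CArG box was present in 1 of the 7 windows, against 1.64% of 33469 promoters of the same length. The full CRE occurred in Dusp1 alone among the 7, against 1.83% of all promoters, and began 124 bases before the start. The core TGACG occurred in 5 of the 7, which were Junb, Egr1, Egr4, Nr4a1 and Dusp1, against 21.2% of all promoters, with 4 matches in Nr4a1. An EGR site (GCGNGGGCG) was found in Nr4a1, against 4.98% of all promoters. The AP-1 site (TGANTCA) was found in none of the 7, against 7.33%, and the TATA box (TATAAA) in Fosb and Junb, against 14.2%. All motifs were searched on both strands. A match, or the lack of one, describes letters in the window only and depends on where the annotated start lies.

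The blocks labelled white matter carried a strong neuronal signal. The summed level of 7 markers of cortical excitatory neurons, which include the glutamate transporter Slc17a7, was 372 to 606 FPKM in the 8 libraries of regions 1 and 2. It was 5.80 to 25.1 FPKM in the 12 cord libraries. Markers of oligodendrocytes were lower there than in the cord. They summed to 708 to 2943 FPKM in regions 1 and 2 and to 7403 to 10779 FPKM in the cord libraries. White matter is used below only as the name of the dissected blocks. In bulk tissue such as this, fewer cells of a type and less RNA per cell cannot be told apart. The table gives no read counts per gene, so the counting error of a value is unknown, and precision rests on the spread between 2 animals in each group. The number of genes with at least 1 FPKM was 12497 to 13546 per library.

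**Figure D1:**
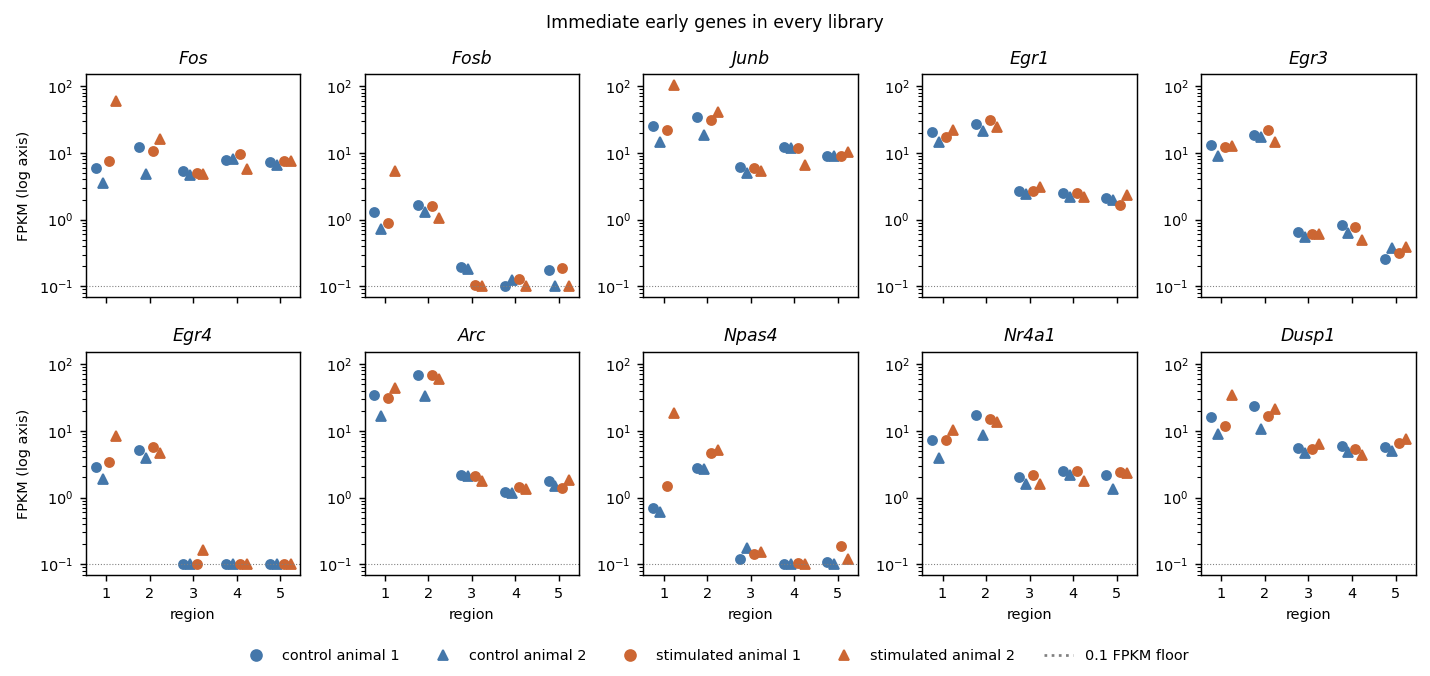
FPKM of each immediate early gene (log axis) in every library by region, with control animals in blue and stimulated animals in orange, animal 1 as circles and animal 2 as triangles. The panels of 9 genes separate regions 1 and 2 from the cord, Fos does not, and the region 1 library of stimulated animal 2 lies apart for Fos, Fosb, Junb and Npas4.

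Levels across regions were led by Arc, Junb and Egr1 in white matter. Since FPKM is scaled by transcript length, genes can be set side by side on this scale. Arc encodes a protein that moves glutamate receptors out of synapses. It had the highest mean of the 10 in white matter, 44.3 ± 19.0 FPKM (SD, n = 8 libraries from 4 animals). Junb, a partner in AP-1 dimers, followed with 36.3 ± 28.5 FPKM and the zinc finger factor Egr1 with 22.2 ± 5.21 FPKM. Dusp1, a phosphatase that inactivates MAP kinases, had 17.9 ± 8.40 FPKM, Fos 15.0 ± 18.4 FPKM and Egr3 14.9 ± 4.16 FPKM. The orphan nuclear receptor Nr4a1 had 10.4 ± 4.48 FPKM. Npas4, a neuron-specific factor that responds to calcium, had 4.56 ± 5.83 FPKM, Egr4 4.47 ± 1.97 FPKM and Fosb 1.72 ± 1.47 FPKM. For Fos and Npas4 the SD exceeded the mean, and the highest value of each came from the region 1 library of stimulated animal 2.

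In the cord the order was different and the levels were lower. Junb was highest, at 8.49 ± 2.64 FPKM (SD, n = 12 libraries from 4 animals). Fos followed at 6.71 ± 1.54 FPKM and Dusp1 at 5.60 ± 0.891 FPKM. Egr1 had 2.36 ± 0.359 FPKM, Nr4a1 2.04 ± 0.387 FPKM, Arc 1.64 ± 0.350 FPKM and Egr3 0.538 ± 0.176 FPKM. Npas4, Fosb and Egr4 were close to 0.1 FPKM, the lowest value the table holds. Egr4 stood at 0.1 FPKM in 11 of the 12 cord libraries, Npas4 in 4 and Fosb in 3. The order of the 5 regions by mean began with region 1 for Fos, Fosb, Junb and Npas4 and with region 2 for the other 6. The ranges of regions 1 and 2 overlapped for every gene but Egr3, and both lay above the cord for every gene but Fos.

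The main question was whether a week of stimulation of the cortex left a higher level of these genes in the white matter below the electrodes. Tissue was taken under lethal anesthesia after the stimulation period, and the paper does not give the time since the last pulses. A rise that had faded by then would not be seen. No member passed the test. The 10 members had positive log2 fold changes, stimulated over control, with a median of 0.95, while the median of all genes was -0.03. With limma in the 4 libraries of region 1, 0 of 10 members passed an adjusted p of 0.05, as did 0% of the 15210 genes. At an unadjusted p under 0.05 there were 828 genes and no member. The smallest two-sided p that an exact permutation of 2 against 2 animals can give is 0.333. Both stimulated values exceeded both control values for 3 members (Fos, Egr4 and Npas4), as for 21.2% of all genes. For no member were both below, against 19.5% of all genes.

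The AP-1 genes differed in 1 animal. Fos encodes the partner of the Jun proteins in the AP-1 factor, and its FPKM was 5.86 and 3.58 in control animals 1 and 2, and 7.65 and 59.3 in stimulated animals 1 and 2. Both stimulated values were above both control values, and stimulated animal 1 was much nearer to the control animals than to stimulated animal 2. The log2 fold change of Fos was 2.22 (limma adjusted p = 0.712, SE 1.11). Fosb, whose truncated product is known to build up with repeated activity, had 1.29 and 0.727 FPKM in the control animals and 0.877 and 5.28 FPKM in the stimulated animals. Junb had 24.96 and 14.5 FPKM in the control animals and 21.7 and 103 FPKM in the stimulated animals. For Fosb and Junb stimulated animal 1 lay between the control animals and stimulated animal 2 above them. Their log2 fold changes were 1.15 (limma adjusted p = 0.733, SE 1.00) and 1.32 (limma adjusted p = 0.712, SE 0.87).

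Npas4 had the largest difference of the 10. Its FPKM was 0.708 and 0.612 in the control animals and 1.51 and 18.4 in the stimulated animals, so both stimulated values exceeded both control values. The log2 fold change was 3.00 (limma adjusted p = 0.712, SE 1.32). The Npas4 level in stimulated animal 1 was 1.20 on the log2 scale above the mean of the control animals. The control animals themselves differed from their mean by 0.11 on that scale, but so few animals measure the spread between animals poorly.

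Egr1 and Egr3 varied less, but Egr4 did not. Egr1 had 20.2 and 14.3 FPKM in the control animals and 17.5 and 22.3 FPKM in the stimulated animals. Egr3 had 13.2 and 9.06 FPKM in the control animals and 12.2 and 12.5 FPKM in the stimulated animals. Both overlapped between groups, with log2 fold changes of 0.22 (SE 0.24) and 0.18 (SE 0.22), and with limma adjusted p of 0.781 and 0.806. Egr4, a relative of Egr1 with lower levels, had 2.86 and 1.91 FPKM in the control animals and 3.41 and 8.29 FPKM in the stimulated animals. Its groups did not overlap, and its log2 fold change was 1.19 (limma adjusted p = 0.712, SE 0.53).

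Arc, Nr4a1 and Dusp1 overlapped between groups. Arc had 34.4 and 16.6 FPKM in the control animals and 31.5 and 43.7 FPKM in the stimulated animals. Nr4a1 had 7.39 and 3.88 FPKM in the control animals and 7.34 and 10.2 FPKM in the stimulated animals. Dusp1 had 16.1 and 8.90 FPKM in the control animals and 11.7 and 34.4 FPKM in the stimulated animals. In all 3 genes control animal 2 was lowest, stimulated animal 2 highest, and the remaining animals lay between them. The log2 fold changes were 0.63 (SE 0.43) for Arc, 0.69 (SE 0.39) for Nr4a1 and 0.75 (SE 0.65) for Dusp1, with limma adjusted p of 0.712, 0.712 and 0.734.

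**Figure D2:**
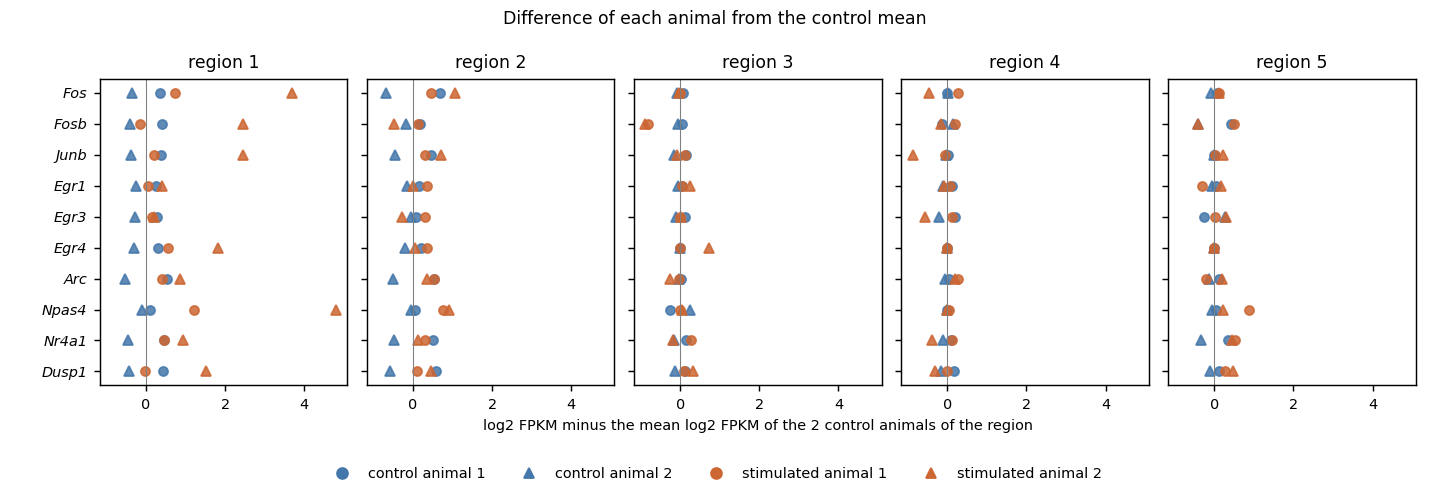
Log2 FPKM of each animal minus the mean log2 FPKM of the 2 control animals of the same region, for each of the 10 genes in regions 1 to 5. In region 1 stimulated animal 2 (orange triangles) reaches 4.81 for Npas4 and 3.70 for Fos, while stimulated animal 1 reaches 1.20 and 0.74, and in the cord most points lie near 0.

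The larger region 1 differences rested on the library of stimulated animal 2. That library was the highest of the 4 for 9 of the 10 members (all but Egr3), as for 24.2% of all genes. It was at least 2-fold above the highest of the other 3 animals for 6 members, as for 5.83% of all genes. The ratio to the highest other animal was 12.2 for Npas4, 7.75 for Fos, 4.15 for Junb, 4.10 for Fosb, 2.43 for Egr4 and 2.14 for Dusp1. It was 1.38 for Nr4a1, 1.27 for Arc, 1.10 for Egr1 and 0.947 for Egr3. Without stimulated animal 2 the median log2 fold change of the members was 0.29, with 8 of 10 positive and a range of -0.14 (Fosb) to 1.20 (Npas4), and none passed. Without stimulated animal 1 the median was 1.68, and Npas4 passed with a log2 fold change of 4.81 (limma adjusted p = 0.0426), as did 228 genes in all. That fit has 1 stimulated library, which is assumed to vary like the control libraries. Control animal 2 was the lowest of the 4 for every member. Without it the log2 fold changes of Egr1 (-0.033) and Egr3 (-0.094) were negative.

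Other genes of the same kind were also highest in that library. Of 34 further activity-induced early genes in the table, 25 were highest in it, against 24.2% of all genes. At least 2-fold above the highest other animal were 14 of them, against 5.83% of all genes. The list was chosen with earlier results of these data known, so these counts are a description only. Socs3, an inhibitor of cytokine signalling, had 1.08 and 0.912 FPKM in the control animals and 2.42 and 39.2 FPKM in the stimulated animals. Zfp36, which destabilises messenger RNA, had 1.43 and 1.19 FPKM in the control animals and 1.97 and 23.4 FPKM in the stimulated animals. Both are known responders to cytokines as well as to activity. Cyr61 (Ccn1) and Maff followed, at 9.34 and 6.43 times the highest other animal. Egr2, a relative of Egr1, had 1.37, 0.637, 1.22 and 4.07 FPKM in the same order of animals. Plk2, an activity-induced kinase, went the other way, with 49.6, 46.5, 41.3 and 37.5 FPKM.

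As a comparison of groups these 34 genes gave no call either. With limma 0 of 34 passed in region 1, 28 had positive log2 fold changes, and their median was 0.54. The 3 with the smallest unadjusted p were Atf3 (log2 fold change 1.71), Plk2 (-0.29) and Maff (2.62), all with an adjusted p of 0.712. Atf3, a stress-induced partner of Jun, had 1.42 and 1.46 FPKM in the control animals and 3.32 and 6.68 FPKM in the stimulated animals, so both stimulated values exceeded both control values. Activity-induced effector genes of neurons, such as secreted factors and synaptic proteins, gave 0 of 19 and a median of -0.13. Their smallest p belonged to Nrn1 (-0.39), Baz1a (1.22) and Inhba (0.93). Kinases, receptors and transcription factors upstream of the early genes gave 0 of 29 and a median of -0.15, led by the glutamate receptor subunit Grin2b (-0.55), the factor Mef2c (-0.45) and the calcium channel Cacna1d (-0.47). In stimulated animal 2, 6 of the 19 effector genes (31.6%) and 6 of the 29 upstream genes (20.7%) were highest of the 4 animals, against 24.2% of all genes. Among the effector genes Bdnf, the neurotrophin induced by activity, had 2.098, 1.92, 1.96 and 2.204 FPKM in control animals 1 and 2 and stimulated animals 1 and 2.

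**Figure D3:**
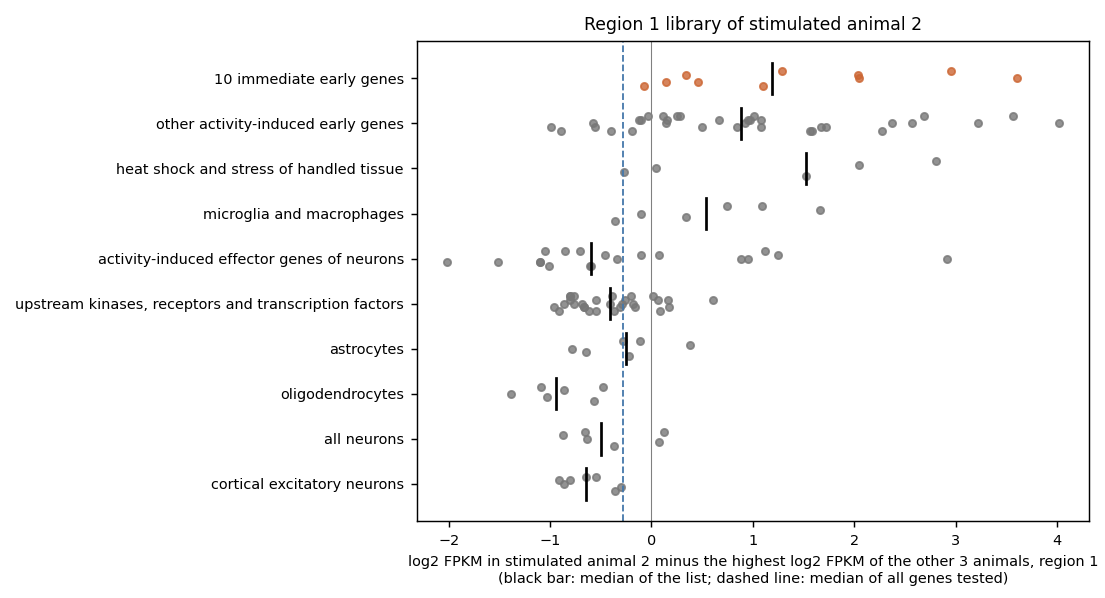
Log2 FPKM in the region 1 library of stimulated animal 2 minus the highest log2 FPKM of the other 3 animals, for each gene (points) of the immediate early genes and of companion and marker lists, with the list median as a black bar. The median is 1.19 for the 10 immediate early genes and 0.89 for other early genes, against -0.28 for all genes (dashed line) and -0.64 for cortical excitatory neuron markers.

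Markers of other cells and of stress moved with the same library. Markers of cortical excitatory neurons were lowest in stimulated animal 2, with a summed level of 565 and 589 FPKM in the control animals and 499 and 372 FPKM in the stimulated animals, and 0 of 7 were highest there. Markers of all neurons summed to 1281, 1289, 1208 and 878 FPKM, and 2 of 6 (Tubb3 and Stmn2) were highest in stimulated animal 2. The astrocyte markers summed to 1110 and 1138 FPKM in the control animals and 1480 and 1521 FPKM in the stimulated animals, with 1 of 6 highest in stimulated animal 2. That marker was Gfap, the filament protein of reactive astrocytes, at 353, 410 and 680 FPKM in the other animals in the same order and 884 FPKM there. The microglia and macrophage markers summed to 118 and 105 FPKM in the control animals and 160 and 230 FPKM in the stimulated animals, and 4 of 6 were highest in stimulated animal 2. The heat shock and stress genes summed to 90.6 and 72.4 FPKM in the control animals and 109 and 243 FPKM in the stimulated animals, and 4 of 5 were highest there. Hspb1, a small heat shock protein, had 22.5, 12.7, 34.9 and 144 FPKM, and Hmox1, which breaks down heme, had 7.21, 5.64, 15.2 and 43.8 FPKM. Dnajb1 differed little, with 12.0, 11.6, 13.6 and 14.0 FPKM. Hsph1 was lowest in stimulated animal 2, with 48.5, 42.2, 45.1 and 40.2 FPKM. Hspa1a, the inducible chaperone, was at 0.1 FPKM in all 4, and its near-identical copy Hspa1b had 0.153, 0.116, 0.204 and 1.43 FPKM. Reads of these copies can be split between them, so the level of each is uncertain. The part of these markers in the levels of the immediate early genes was not tested.

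The same animal was also apart in region 2 in the sums of microglia, astrocyte and stress genes, but not of cortical excitatory neuron markers. In region 2 the microglia and macrophage markers summed to 245 FPKM in stimulated animal 2 and to 46.7 to 54.3 FPKM in the other 3 animals. The astrocyte markers summed to 1398 FPKM against 589 to 741 FPKM. The heat shock and stress genes summed to 129 FPKM against 54.1 to 66.4 FPKM. Of these, Hspb1 had 56.5 FPKM against 3.37 to 4.87 FPKM, while Hsph1 was not apart, with 44.3 FPKM against 36.4 to 44.8 FPKM. The cortical excitatory neuron markers summed to 530.4 FPKM against 527 to 606 FPKM. There Fos had 16.1 FPKM in stimulated animal 2, with 12.4, 4.75 and 10.6 FPKM in control animals 1 and 2 and stimulated animal 1. Striatal projection neuron markers were highest in stimulated animal 1 in region 1, where they summed to 119 FPKM against 29.0 to 40.6 FPKM in the other 3 animals.

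**Figure D4:**
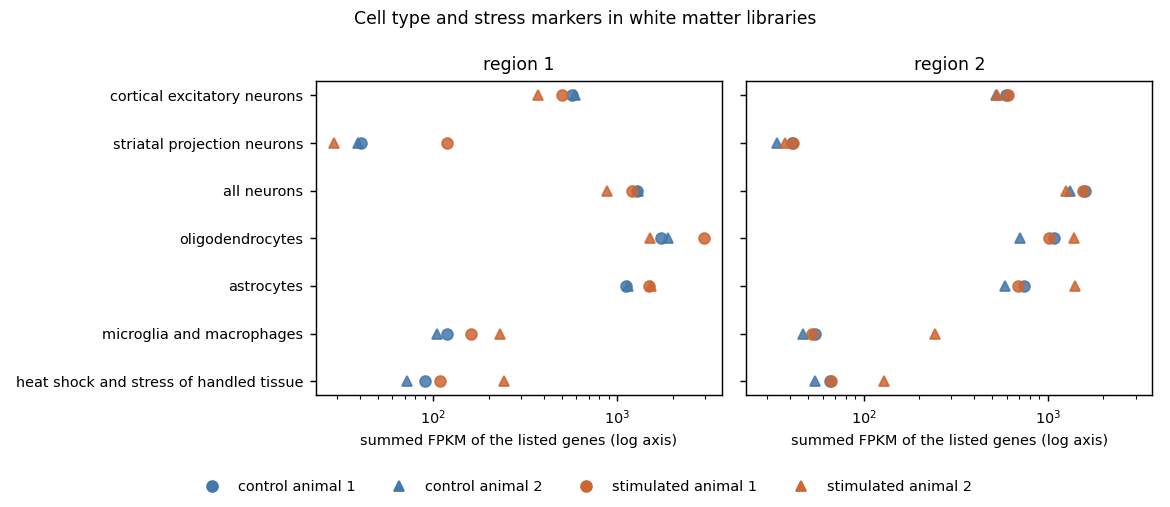
Summed FPKM of marker lists (log axis) in each library of regions 1 and 2, with control animals in blue, stimulated animals in orange, animal 1 as circles and animal 2 as triangles. Stimulated animal 2 has the highest sum of microglia and macrophage markers and of heat shock and stress genes in both regions. It has the lowest sum of cortical excitatory neuron markers in region 1.

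In regions 2 to 5 stimulation gave small differences and no call for a member. In region 2, the white matter of the unstimulated hemisphere, 0 of 10 members passed (0% of all genes) and the median log2 fold change was 0.24, against 0.08 for all genes. Only Npas4 had both stimulated values above both control values there, as did 20.2% of all genes, and none lay below, against 6.77% of all genes. Npas4 had 2.81 and 2.66 FPKM in the control animals and 4.61 and 5.17 FPKM in the stimulated animals. Its log2 fold change was 0.84 (SE 0.14, limma unadjusted p = 0.00618, adjusted p = 0.949), the only member of region 2 among 215 genes with an unadjusted p under 0.05.

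In the cord rostral to the injury, region 3, 0 of 10 passed (0% of all genes) and the median was 0.02. Fosb had the smallest unadjusted p of any member in any region there, 0.000226 (limma adjusted p = 0.488), with a log2 fold change of -0.84. Its FPKM was 0.192 and 0.180 in the control animals and 0.106 and 0.101 in the stimulated animals, all close to the lowest value of the table. Fosb was the only member of region 3 among 522 genes with an unadjusted p under 0.05. Fosb and Arc had both stimulated animals below both control animals, as did 24.7% of all genes, and no member the reverse, against 5.14%.

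At the lesion, region 4, 0 of 10 passed (0% of all genes). There, 0 of 10 had an unadjusted p under 0.05 against 341 of all genes, and the median was -0.05. Junb was lowest in stimulated animal 2, with 12.3 and 11.8 FPKM in the control animals and 11.6 and 6.62 FPKM in the stimulated animals. It was the only member whose stimulated values were both below the control values (7.69% of all genes), and Arc the only member with the reverse (12.5%). Caudal to the lesion, region 5, 0 of 10 passed (0.0197% of all genes), 0 of 10 had an unadjusted p under 0.05 against 546 of all genes, and the median was 0.12. Both stimulated values exceeded both control values for 5 members there (Fos, Junb, Npas4, Nr4a1 and Dusp1), as for 18.5% of all genes, and none lay below, against 6.07%. Dusp1 had 5.81 and 5.00 FPKM in the control animals and 6.49 and 7.51 FPKM in the stimulated animals, with a log2 fold change of 0.37 (limma adjusted p = 1, SE 0.15). Npas4 in region 5 passed without stimulated animal 2 (log2 fold change 0.87, limma adjusted p = 0.00129), on levels of 0.107 and 0.1 FPKM in the control animals and 0.188 FPKM in stimulated animal 1.

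The effect of stimulation was compared between regions within each animal. Over the 10 pairs of regions, 0 of the 100 combinations of member and pair passed with limma. Of all genes 0% passed in 8 of the pairs, 0.0131% between regions 3 and 5 and 0.00657% between regions 4 and 5. Between regions 1 and 2 all 10 differences were positive, from 0.03 for Egr1 to 2.17 for Npas4 (SE 1.20, adjusted p = 0.884), and Fos had 1.45 (SE 0.85, adjusted p = 0.884). No gene passed in that comparison (0% of 15210), and no member had an unadjusted p under 0.05. All pairs with region 1 share its libraries, and so rest on stimulated animal 2 in the same way.

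The 2 hemispheres differed for several members. Relative to region 2, region 1 had lower levels of Arc, Nr4a1, Egr3 and Egr1. With limma across all 20 libraries, these 4 of 10 members passed, all lower in region 1, as did 8.61% of all genes and 1.76% in that direction. Arc had 34.4, 16.6, 31.5 and 43.7 FPKM in region 1 of control animals 1 and 2 and stimulated animals 1 and 2, and 67.4, 32.8, 67.9 and 60.4 FPKM in region 2. Its log2 fold change, region 1 over region 2, was -0.88 (SE 0.24, adjusted p = 0.0306). Nr4a1 had 7.39, 3.88, 7.34 and 10.2 FPKM in region 1 and 17.2, 8.71, 15.0 and 13.3 FPKM in region 2, with a log2 fold change of -0.95 (limma adjusted p = 0.0308, SE 0.26). The lower side was the same in each animal for both genes, although the ranges over animals overlapped.

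Egr3 was the member whose ranges in the 2 hemispheres did not overlap, with 9.06 to 13.2 FPKM in region 1 and 14.6 to 22.1 FPKM in region 2. Its log2 fold change was -0.63 (limma adjusted p = 0.0342, SE 0.17). Ranges lay apart in that direction for 3.16% of all genes. Egr1 had 14.3 to 22.3 FPKM in region 1 and 21.6 to 30.8 FPKM in region 2, with a log2 fold change of -0.49 (limma adjusted p = 0.0347, SE 0.14). The other 6 members did not pass, with log2 fold changes from -0.97 for Npas4 (adjusted p = 0.420) to 0.06 for Fosb (adjusted p = 0.956).

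Within animals the pattern was wider. In both control animals and in stimulated animal 1 every one of the 10 members was lower in region 1 than in region 2, as were 13.5% of all genes. In stimulated animal 2 only 4 were lower (Egr1, Egr3, Arc and Nr4a1), as were 68.4% of all genes. For Npas4 the difference, region 1 minus region 2 on the log2 scale, was -1.99 and -2.12 in the control animals and -1.61 and 1.83 in the stimulated animals. For Fos it was -1.08, -0.41, -0.47 and 1.88, and for Fosb -0.37, -0.84, -0.86 and 2.32. The control animals were not given the week of stimulation, and this difference was present in them too. The paper describes test pulses through each wire before that week, and does not say that control animals were spared them. In every animal region 1 lay below the electrodes and opposite the injury, so these cannot be told apart, and the cause was not tested.

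**Figure D5:**
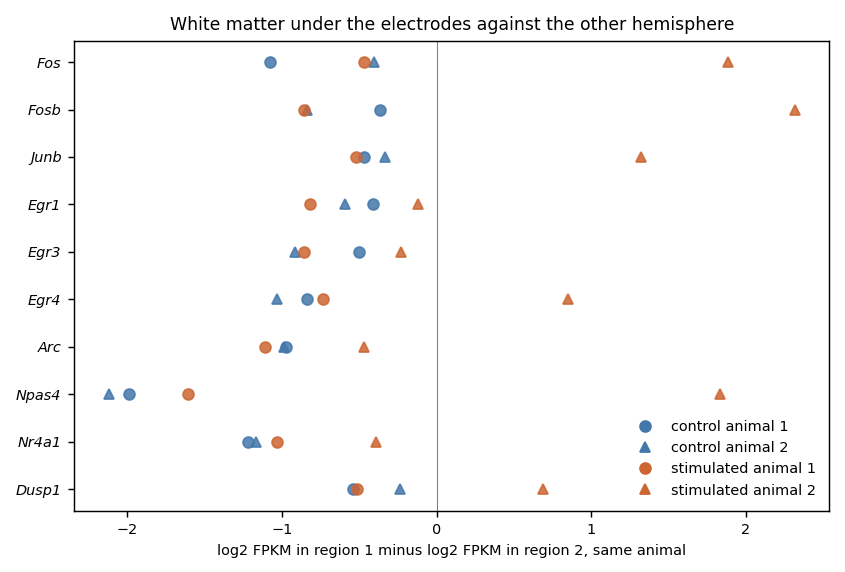
Log2 FPKM in region 1 minus log2 FPKM in region 2 of the same animal for each of the 10 genes, with control animals in blue, stimulated animals in orange, animal 1 as circles and animal 2 as triangles. Both control animals and stimulated animal 1 are below 0 for every gene, and stimulated animal 2 is above 0 for Fos, Fosb, Junb, Egr4, Npas4 and Dusp1.

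The calls between hemispheres depended on the animals used. Without stimulated animal 2, 6 members passed with limma, the same 4 with Egr4 (log2 fold change -0.87) and Npas4 (-1.91). In the control animals alone 2 passed, Egr4 (-0.93) and Npas4 (-2.06). Without control animal 1 or without stimulated animal 1 none passed, and without control animal 2 there were 2. With the animal as a block the same 4 members passed, and with no filter on low genes none did.

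Companion genes and cell markers also differed between the hemispheres. Bdnf was lower in region 1 (2.05 ± 0.129 against 4.20 ± 0.715 FPKM, SD, n = 4), with a log2 fold change of -1.02 (limma adjusted p = 0.00291), as was Pcsk1, a protease that processes neuropeptides (-0.55, adjusted p = 0.0219). These were 2 of 19 effector genes. Of 34 other early genes, Nr4a3, a relative of Nr4a1, was lower (-0.66, limma adjusted p = 0.0163), and Jun (0.64, adjusted p = 0.0138) and Atf3 (3.68, adjusted p = 0.00300) were higher. Of 29 upstream genes, the kinase Camk4 was lower (-0.61, limma adjusted p = 0.0330) and the kinase Mapk3 higher (0.48, adjusted p = 0.0156). Oligodendrocyte markers were higher in region 1 for 5 of 6, and summed to 1512 to 2943 FPKM there against 708 to 1391 FPKM in region 2. The astrocyte markers were higher in region 1 for 2 of 6, Gfap (log2 fold change 2.04, limma adjusted p = 0.0192) and Aqp4 (0.86, adjusted p = 0.0178). The microglia and macrophage markers were higher for 1 of 6, the lysosomal protein Cd68 (3.12, limma adjusted p = 0.0178). In the control animals the microglia and macrophage markers summed to 118 and 105 FPKM in region 1 and to 54.3 and 46.7 FPKM in region 2. Of the 7 cortical excitatory neuron markers none passed, and they summed to 372 to 589 FPKM in region 1 and 527 to 606 FPKM in region 2. Whether the mix of cells in the 2 blocks sets the levels of the members was not tested.

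White matter and spinal cord differed for nearly all members. With limma on 8 against 12 libraries from 4 animals, 9 of 10 were higher in white matter, as were 25% of all genes. In either direction 72.2% of all genes passed. Ranges did not overlap for the 9 members that passed, as for 10.3% of all genes. The fit took the libraries as independent, although they share animals. Fosb, Egr3, Egr4 and Npas4 stayed under 1 FPKM in every cord library. They passed the filter only through white matter, where they are high, so their calls and separate ranges are a description only. Egr4 had the largest log2 fold change, 5.30 (SE 0.21, adjusted p = 3.21e-14), which rests on the 0.1 FPKM given to 11 cord libraries. Egr3 had 9.06, 13.9 and 22.1 FPKM as lowest, median and highest in white matter and 0.260, 0.575 and 0.821 FPKM in the cord, with a log2 fold change of 4.82 (limma adjusted p = 1.84e-17, SE 0.11). Arc had 16.6, 39.0 and 67.9 FPKM in white matter and 1.15, 1.61 and 2.15 FPKM in the cord, with a log2 fold change of 4.65 (limma adjusted p = 3.05e-15, SE 0.15). The lowest white matter value of each of these genes exceeded the highest cord value.

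The remaining members separated less widely. The log2 fold changes were 4.41 for Npas4, 3.46 for Fosb, 3.22 for Egr1, 2.24 for Nr4a1, 1.89 for Junb and 1.56 for Dusp1. Fos had 3.58, 9.12 and 59.3 FPKM as lowest, median and highest in white matter and 4.74, 6.998 and 9.57 FPKM in the cord. Its log2 fold change was 0.60 (limma adjusted p = 0.144, SE 0.36), and its ranges overlapped. Fos passed without control animal 2 (log2 fold change 1.01, limma adjusted p = 0.0367), while without stimulated animal 2 the difference was 0.01, and in the control animals alone it was -0.14. The cortical excitatory neuron markers passed as higher in white matter for 7 of 7, with a median log2 fold change of 5.96. The share of those cells in the tissue difference of the members was not tested.

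Companion genes of the members were mixed between the tissues. Among the 34 other early genes 20 were higher and 4 lower in white matter with limma, led by Ptgs2 (log2 fold change 3.82), Plk2 (3.17) and Ier5 (2.56), while Atf3 (-1.65), Sgk1 (-1.03) and Myc (-0.85) were lower. Among effector genes 12 of 19 were higher, led by Rasgrp1 (4.19), Homer1 (2.59) and Lingo1 (2.54), and 5 were lower, led by the neuropeptides Tac1 (-1.78) and Penk (-1.32) and by Scg2 (-1.29). Among upstream genes 19 of 29 were higher, led by Camk2a (4.93), Mef2c (3.89) and Grin2b (2.85), and 6 were lower, led by Rps6ka1 (-1.07), Mapk3 (-1.002) and Crem (-0.70).

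Within the cord Egr3 was the member that gave calls, and Arc, Junb and Egr1 passed under alternatives. It had 0.647, 0.551, 0.600 and 0.605 FPKM in region 3 of control animals 1 and 2 and stimulated animals 1 and 2. It had 0.821, 0.623, 0.776 and 0.489 FPKM at the lesion and 0.260, 0.379, 0.319 and 0.388 FPKM caudal to it. Region 5 was thus lowest in all 4 animals. The log2 fold change was -0.997 for region 5 over region 4 (limma adjusted p = 0.00625, SE 0.17), where 1 of 10 members and 7.99% of all genes passed, 0.934% in that direction. Egr3 was also the member whose ranges lay apart between these regions, as for 1.84% of all genes in that direction. It was 0.85 for region 3 over region 5 (limma adjusted p = 0.0115, SE 0.17), where 1 of 10 members and 4.32% of all genes passed, 1.55% in that direction. With the animal as a block Egr1 passed there too (0.42, limma adjusted p = 0.0488). Ranges of regions 3 and 5 lay apart for Egr1 and Egr3, higher in region 3 (5.02% of all genes), and for Fos and Junb, lower in region 3 (20.5%). All levels of Egr3 in the cord were under 1 FPKM, and with a pseudocount of 1 FPKM neither of its comparisons passed. The call for region 5 over region 4 was lost without control animal 1 (limma adjusted p = 0.158) and without control animal 2 (0.0548). That for region 3 over region 5 was lost without control animal 1 (limma adjusted p = 0.127), control animal 2 (0.0569) or stimulated animal 1 (0.112).

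Between region 3 and the lesion 0 of 10 members passed, against 19.6% of all genes. With limma 2 members had an unadjusted p under 0.05. Arc had 1.79 to 2.15 FPKM in region 3 and 1.15 to 1.43 FPKM in region 4 (log2 fold change, region 3 over region 4, 0.65, adjusted p = 0.0626), and it passed with the animal as a block (limma adjusted p = 0.0277), with quantile normalization (0.0180) and without control animal 2 (0.0390). Junb had 4.98 to 6.19 FPKM in region 3 and 6.62 to 12.3 FPKM in region 4 (-0.88, adjusted p = 0.133), and it passed without stimulated animal 2 (-1.06, limma adjusted p = 0.00290). Ranges lay apart for 4 members, with Arc and Npas4 higher in region 3 (15.7% of all genes) and Fos and Junb lower (13%).

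Levels of the members were also compared with each other. As a description, Pearson correlations of log2 FPKM among the 45 pairs of members over all 20 libraries had a median of 0.93, and all 45 were positive, which includes the tissue difference. After the region mean was removed, the median was 0.80 over the 8 white matter libraries, with 45 of 45 positive, and 0.83 over the 6 that remain without stimulated animal 2, with 45 of 45 positive. Over the 12 cord libraries it was 0.18, with 31 of 45 positive, but Fosb, Egr4 and Npas4 lie near the lowest value of the table there. Among the other 7 genes the median was 0.40 in the cord, with 19 of 21 pairs positive, 0.20 there without stimulated animal 2, with 16 of 21, and 0.80 in white matter, with 21 of 21. The points share animals and libraries, and the difference between the tissues was not tested.

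Genes whose pattern was most like that of the members were listed among 13483 other genes with a mean of at least 1 FPKM. With region means removed, over 20 libraries, the highest Pearson correlations with the mean of the members were those of Egr2 (0.94), Tiparp (0.93), Dusp6 (0.91), Agpat9 (0.91), Trib1 (0.90), Ppp1r15a (0.89), Dgat2 (0.88) and RGD1564664 (0.88). Without stimulated animal 2 none of these 8 was among the highest 8, and without control animal 2 none either. With region means kept, the highest were Rasd1 (0.98), Nptx2 (0.98), Ptgs2 (0.96), Hectd2 (0.96) and Arl4d (0.96), none of which was among the highest 5 without stimulated animal 2. Nptx2, an activity-induced protein that gathers glutamate receptors, had 12.2, 11.4, 12.0 and 23.6 FPKM in region 1 of control animals 1 and 2 and stimulated animals 1 and 2.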

How the data were processed

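RNA from 5 regions of 4 rats was measured by RNA-seq. The values are FPKM as the authors deposited them, made by aligning reads to Rnor6 with TopHat2 2.1.0 and estimating expression with Cufflinks 2.2.1, with values under 0.1 raised to 0.1. Read counts per gene are not in the table, so the counting error of a value is unknown. The study lists read totals per library, which were not used here. The table held 0 columns without a sample. The tools ran with default settings, which use no strand, so genes that overlap or lie antisense are uncertain.

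Log2 FPKM was fitted with limma 3.58.1 (eBayes with trend) in R 4.3.3 for genes with at least 1 FPKM in any of 20 libraries. Stimulation was fitted in the 4 libraries of a region, regions in all 20 libraries with a mean per region, and differences of effects on differences within animals. The Benjamini-Hochberg adjustment ran over 15210 genes, and an adjusted p under 0.05 was called. Regions of 1 animal are not independent, and an animal block was an alternative. Other alternatives were other pseudocounts, filters, quantile and upper-quartile scaling, eBayes without trend, a model of all libraries, a replicate block and leaving out each animal. The fits were tested on simulated data. Tables, motifs and plots were made in Python 3.11.15 with pandas 2.3.3, numpy 2.4.6 and matplotlib 3.10.9.

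The members, companion lists and markers were chosen with earlier results of these data known. All members were named. From companion lists, every gene past the threshold was named where at most 6 passed, otherwise the 3 with the largest change in each direction, and the 3 of smallest p if none passed. The genes singled out in the region 1 library of stimulated animal 2 (Socs3, Zfp36, Cyr61, Maff, Egr2, Plk2, Bdnf, Hspb1, Hmox1) were chosen after their values were seen. Genes most alike were the 8 and 5 with the highest correlation. Promoters are those of RefSeq GRCr8, a later assembly than Rnor6.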

Additional observations from a re-analysis of the deposited data

Results flagged for a closer look

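A library was picked out where its gap to the nearest of the other 3 animals, divided by the range of all 4, exceeded the critical value of Dixon's test for 4 samples. Chance picks out about 1 in 20 such sets. Of 48 sets of gene and region that were tested, 8 were picked out on the FPKM scale and 5 on the log2 scale.

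In region 1 all 4 came from stimulated animal 2 and were seen on the FPKM scale only. The gap was 0.927 of the range for Fos, 0.877 for Fosb, 0.883 for Junb and 0.949 for Npas4. On the log2 scale none of the 4 exceeded the critical value.

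In region 2 Arc was low in control animal 2 on the log2 scale (0.840), at 32.8 FPKM against 60.4 to 67.9 FPKM in the other animals. In region 3 Egr4 reached 0.166 FPKM in stimulated animal 2 and stood at 0.1 FPKM in the other 3, which gives 1.0 on both scales. In region 4 Npas4 reached 0.103 FPKM in stimulated animal 1 and stood at 0.1 FPKM in the other 3, which also gives 1.0 on both scales. These differences lie at the lowest value the table holds.

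Junb was picked out for stimulated animal 2 in both of the lower cord regions, in opposite directions. At the lesion it was low (6.62 FPKM against 11.6 to 12.3 FPKM, 0.884 on the FPKM scale and 0.911 on the log2 scale). Caudal to the lesion it was high (10.3 FPKM against 8.92 to 8.96 FPKM, 0.973 on the FPKM scale and 0.971 on the log2 scale).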

How the results depend on the processing

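With 2 animals per group and no read counts per gene, differences under the spread between animals were not detectable, and levels near 0.1 FPKM carry little information. Of 734 recomputed values, 470 values of single genes or of the whole table and 123 counts of members were rated the same. A log2 fold change was so rated if it kept its direction and side of the threshold. A count was so rated if it was equal or close to the main count, so it need not be identical. The cause of the changes below was not tested.

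For stimulation, the number of members that passed was 0 to 1 in region 1 and 0 to 1 in region 5 when animals were left out. The replicate numbers name different animals, and deviations of same-numbered animals correlated at -0.21, -0.10, -0.11, 0.32 and -0.16 in regions 1 to 5, so the numbers were not taken to pair the animals. With the replicate block 1 member passed in region 5 (Npas4, with 443 genes against 3), 2 combinations of member and pair of regions passed for the difference of effects, and no other count of members for stimulation changed. With crossed pairs 2 combinations passed for the difference of effects, and 118 genes passed in region 4 against 0. Leaving out animals gave 0 to 5 combinations.

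Between regions 1 and 2, 4 members passed, 0 with no filter, 2 in the control animals alone, and 0 to 6 when animals were left out. Between regions 3 and 4, 0 passed, 1 with quantile normalization or the animal block (Arc), and 0 to 1 when animals were left out. For region 5 against region 4, 1 passed, 0 with log2(FPKM + 1), 0 in the control animals alone, and 0 to 1 when animals were left out. For region 3 against region 5, 1 passed, 0 with log2(FPKM + 1), 0 in the control animals alone, 2 with quantile normalization, upper-quartile scaling or the animal block (Egr3 and Egr1), and 0 to 1 when animals were left out.

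Reversed log2 fold changes of stimulation in region 1 were those of Fosb (-0.14) and Dusp1 (-0.032) without stimulated animal 2 and of Egr1 (-0.033) and Egr3 (-0.094) without control animal 2. When animals were left out, the values were -0.14 to 2.45 for Fosb, -0.032 to 1.52 for Dusp1, -0.033 to 0.47 for Egr1 and -0.094 to 0.45 for Egr3. For region 1 over region 2 they were -0.65 to 0.34 for Fos (main value -0.018), -0.69 to 0.37 for Fosb and -0.44 to 0.17 for Junb, with Fos reversed without any animal but stimulated animal 2, and Fosb and Junb without stimulated animal 2. There Fos was also reversed with log2(FPKM + 1) (0.027), Fosb with quantile normalization (-0.071) and in the control animals alone (-0.60), and Junb with quantile normalization (-0.048), upper-quartile scaling (-0.059) and in the control animals alone (-0.40). For white matter over cord, Fos was -0.14 in the control animals alone. None of these was called.

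Over all genes, stimulation counts moved from 0 to 6 (region 1), 1 (region 2) and 3 (region 3) and from 3 to 22 (region 5) with no filter. Leaving out animals gave 0 to 228, 0 to 548, 0 to 0, 8 to 140 and 0 to 147 genes in regions 1 to 5. Region 1 against region 2 called 1310 genes, 698 with no filter, 2247 with upper-quartile scaling and 26 to 3674 when animals were left out. The share of higher calls was 79.6% there, and 52.9% with quantile normalization. It was 34.7% and 45.6% for white matter, 65.4% and 54% (upper-quartile scaling) for region 3 against 4, 88.3% and 47.7% (upper-quartile scaling) for region 5 against 4, and 35.8% and 64.2% (upper-quartile scaling) for region 3 against 5. Quantile normalization moved the median of all genes from 0.08 to -0.06 for stimulation in region 2, from -0.18 to -0.04 for white matter over cord and from 0.06 to -0.05 for region 1 over region 2. Upper-quartile scaling moved it from 0.14 to -0.02 for region 5 over region 4 and from -0.11 to 0.01 for region 3 over region 5.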
